A study of Homo sapiens with 48 samples.

Results

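The RAS, RAF, MEK and ERK genes form the signalling chain that oncogenic RAS drives, and 7 of them were followed here across IMR90 ER:RAS cells with and without RAS activation and with or without knockdown of the splicing factors SF3B1 and RBM39. The members were chosen by name, as the rows of the gene table called HRAS, NRAS, ARAF, BRAF, MAP2K1, MAP2K2 and MAPK3, which are 7 of 19847 genes. The 7 genes also hold 140 of the 363278 alternative splicing events in the inclusion table. All 7 genes were among the 9991 genes tested for a change in level, and 9 of the 140 events were among those tested for a change in splicing. In GRCh37 the genes lie at chr11:532242-537321 (HRAS, minus strand), chr1:115247090-115259392 (NRAS, minus), chrX:47420604-47431307 (ARAF, plus), chr7:140419127-140624729 (BRAF, minus), chr15:66679175-66783994 (MAP2K1, plus), chr19:4090319-4124119 (MAP2K2, minus) and chr16:30125426-30134827 (MAPK3, minus).

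RAS proteins are small GTPases at the inner face of the cell membrane that are switched on when growth factor receptors recruit exchange factors, and switched off by GTPase-activating proteins. Active RAS recruits RAF kinases, RAF phosphorylates the MEK kinases, and MEK phosphorylates ERK, which acts on many targets in the cytoplasm and the nucleus. In fibroblasts a strong and lasting signal through this chain leads to oncogene-induced senescence, a stable arrest accompanied by secretion of inflammatory factors.

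IMR90 is a human lung fibroblast line. Every library came from cells infected with ER:RAS, a fusion of HRAS G12V with the ligand-binding domain of the oestrogen receptor that 4-hydroxytamoxifen (4OHT) activates, so the DMSO controls carried the transgene too and no cells without it were compared here. The 48 libraries formed 6 groups of 8: cells given DMSO or 4OHT were transfected on day 6 with siRNAs that target no gene (siNT), SF3B1 (siSF3B1) or RBM39 (siRBM39), kept in 0.5% FBS and collected 2 days later. Each group joined 2 siRNAs with 4 replicates each (siNT1 and siNT2, siSF3B1-13 and siSF3B1-16, siRBM39-06 and siRBM39-08). The methods of the study describe in vitro replicates as independent experiments, and the labels do not say which replicates shared a culture or a day. The p-values measure the spread between these libraries.

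Libraries held 31467221 to 52734636 counts. The siRNA targets matched the labels, since mean SF3B1 was 359 CPM (counts scaled to library size) in siNT and 32.8 CPM in siSF3B1 cells given DMSO, and mean RBM39 was 170.3 CPM in siNT and 27.4 CPM in siRBM39 cells given DMSO. In siNT cells 4OHT raised IL1A, IL1B, IL6, CXCL8 and CDKN2B by 7.49, 13.41, 6.48, 11.70 and 2.38 on the log2 scale and LMNB1 fell by 2.47 on the log2 scale. All 8 fibroblast markers listed were detected in all 48 libraries, with a summed level of 11483 to 59092 CPM that was lower in 4OHT. Summed epithelial markers (4 of 4) reached 34.02 CPM in replicate 4 of siRBM39-08 in 4OHT and at most 10.5 CPM elsewhere. In that library the keratin gene KRT5 was at 30.2 CPM, against a median of 2.53 over all libraries. The epithelial markers EPCAM, CDH1, KRT5 and KRT14 and the endothelial marker VWF were each highest there. KRT14 was at 0 in 28 libraries and reached at most 0.0634 CPM. Summed endothelial markers (2 of 3) reached 7.98 CPM and immune markers (3 of 3) 1.06 CPM. That siRBM39-08 library stood apart from its group, with a median correlation to the other libraries of the group of 0.917. The other siRBM39-08 libraries in 4OHT were at 0.990 to 0.992. Calls of member genes that rest on the library that stood apart are given with and without it. Pathway genes, HRAS junction reads and correlations between genes are given with it only.

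By cRPKM, a level scaled to gene length and corrected for mappability that allows genes to be compared, HRAS stood far above the other members. In siNT cells given DMSO the mean of 8 libraries was 497 cRPKM for HRAS, 101.6 for the MEK gene MAP2K2, 58.6 for the ERK gene MAPK3, 29.1 for NRAS, 25.8 for ARAF, 18.5 for the other MEK gene MAP2K1 and 4.32 for BRAF. HRAS was thus 4.89-fold above MAP2K2 and 115-fold above BRAF. NRAS and ARAF were neighbours whose libraries overlapped, and every other pair of neighbours in this order did not overlap. The HRAS row cannot separate reads of the endogenous gene from reads of the transgene, so its level is that of both together. In bulk RNA, fewer cells with a transcript and less transcript per cell cannot be told apart.

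**Figure D1:**
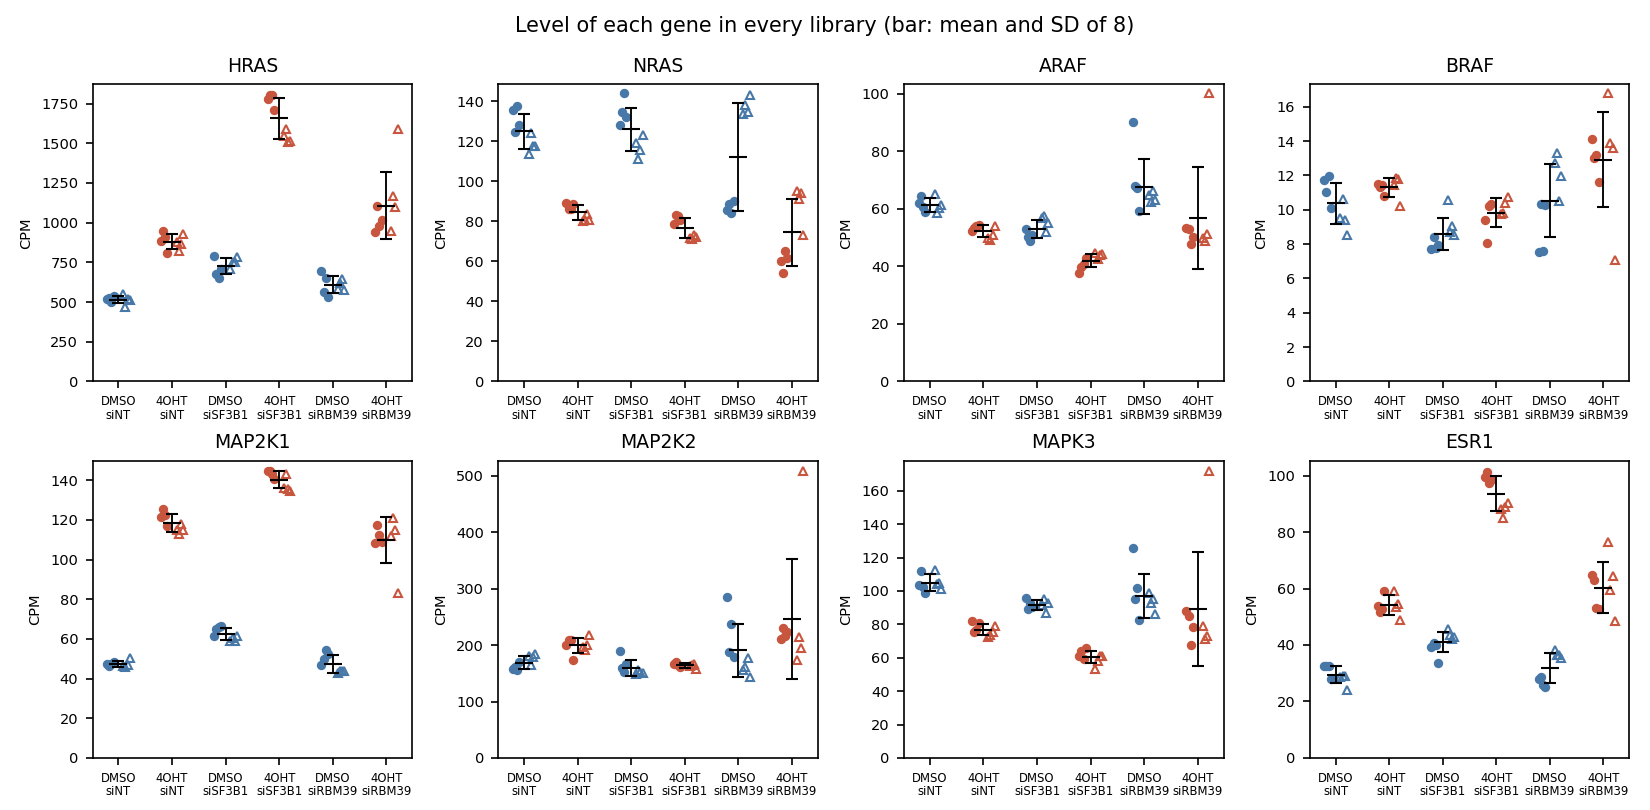
Level of each of the 7 genes, and of ESR1, which is not a member, in every library, in CPM, for the 6 groups (blue, DMSO; red, 4OHT; filled circles, siNT1, siSF3B1-13 and siRBM39-06; open triangles, siNT2, siSF3B1-16 and siRBM39-08; bars, mean and SD of 8 libraries). HRAS and MAP2K1 were higher in every 4OHT siNT library than in any DMSO siNT library, while 1 siRBM39 library in 4OHT reached 508 CPM for MAP2K2.

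The comparison of 4OHT with DMSO in siNT cells asked how RAS activation moved the chain itself. HRAS and the MEK gene MAP2K1 rose, whereas NRAS, ARAF and the ERK gene MAPK3 fell, and BRAF and MAP2K2 did not pass the test. Thus 5 of 7 members were called at an adjusted p under 0.05 (edgeR's quasi-likelihood test), against a background of 78.1% of all tested genes. The members' median log2 fold change was 0.12, and that of all tested genes was -0.0019.

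Among the RAS genes, HRAS, which encodes the GTPase that the transgene carries in mutant form, ranged in siNT cells from 470.02 to 548 CPM (median 518) in DMSO and from 810.1 to 949 CPM (median 879) in 4OHT. The groups did not overlap, and the fold was 1.71 (log2 fold change 0.77, SE 0.07, adjusted p = 5.19e-14). ESR1, the gene of the oestrogen receptor whose ligand-binding domain is part of the fusion, was at 24.04 to 32.6 CPM in DMSO and 48.8 to 59.2 CPM in 4OHT (log2 fold change 0.88, SE 0.08, adjusted p = 1.31e-13). How far either row counts the transgene was not tested. NRAS, a RAS gene that is not part of the construct, went the other way, from 113 to 138 CPM (median 124) in DMSO to 79.9 to 89.2 CPM (median 84.9) in 4OHT. Again no library overlapped (log2 fold change -0.57, SE 0.10, adjusted p = 2.98e-06).

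Of the RAF genes, ARAF lay between 58.6 and 65.2 CPM (median 60.9) in DMSO and between 49.3 and 54.5 CPM (median 52.9) in 4OHT, a small but non-overlapping fall (log2 fold change -0.23, SE 0.09, adjusted p = 0.0174). Leaving out replicate number 1, 2 or 3 from every arm ended this call (-0.24 to -0.19), as did either siNT siRNA alone (-0.18 with siNT1, adjusted p = 0.227, and -0.27 with siNT2, adjusted p = 0.0805). BRAF, the RAF kinase most often mutated in cancer, was the lowest member, with 8.54 to 11.98 CPM in DMSO and 10.2 to 11.9 CPM in 4OHT. Its groups overlapped, and the 95% interval of its log2 fold change ran from -0.08 to 0.33.

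The paired kinases MAP2K1 and MAP2K2, which encode MEK1 and MEK2, parted. MAP2K1 moved most among the 7 genes, from 45.9 to 50.3 CPM (median 47.03) in DMSO to 112.9 to 126 CPM (median 117) in 4OHT. This was a 2.50-fold rise in mean without overlap (log2 fold change 1.32, SE 0.05, adjusted p = 5.74e-28). MAP2K2 ranged from 155 to 184 CPM (median 167) in DMSO and from 175 to 218 CPM (median 199.7) in 4OHT, with overlap (log2 fold change 0.24, SE 0.13, adjusted p = 0.0805). Without the siRBM39-08 library that stood apart, which enters the estimate of the spread, MAP2K2 passed the test (0.24, adjusted p = 0.00591). MAPK3, which encodes ERK1, fell from 98.7 to 112.6 CPM (median 104) to 72.3 to 82.0 CPM (median 76.0), with no overlap (log2 fold change -0.45, SE 0.10, adjusted p = 1.24e-04).

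**Figure D2:**
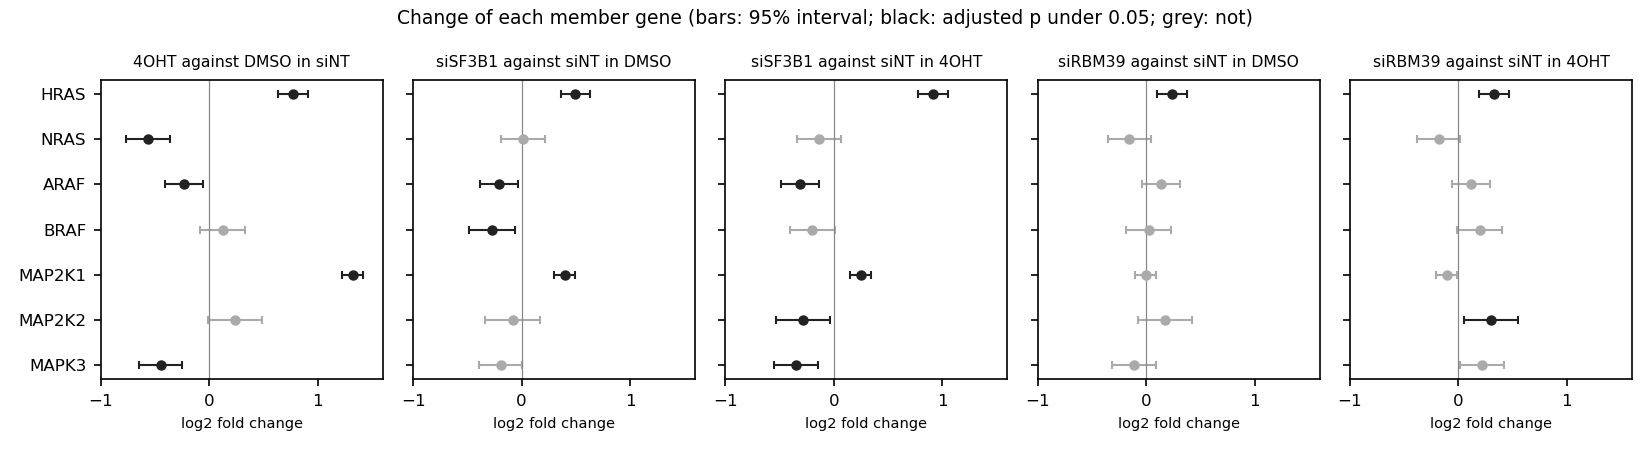
Log2 fold change of each member in the 5 comparisons of groups, from edgeR, with 95% intervals. In 4OHT against DMSO, MAP2K1 is furthest above 0 at 1.32 and NRAS furthest below at -0.57, and for siSF3B1 in 4OHT HRAS is at 0.91.

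The siSF3B1 and siRBM39 comparisons share their siNT libraries. The comparison of siSF3B1 with siNT asked what loss of SF3B1, a core component of the U2 snRNP that recognises the branch point of introns, did to the chain in each state. In both states HRAS and MAP2K1 rose and ARAF fell. BRAF also passed the test in DMSO, and MAP2K2 and MAPK3 in 4OHT, all of them lower. In all, 4 of 7 members were called in DMSO, where 72.7% of all tested genes were, and 5 of 7 in 4OHT, where 77.0% were. The members' median log2 fold change was -0.08 in DMSO and -0.20 in 4OHT, and that of all tested genes was 0.02 and 0.03.

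HRAS rose further upon SF3B1 knockdown, to 649.7 to 792 CPM (median 729.7) in DMSO and to 1509.7 to 1803 CPM (median 1651) in 4OHT. Every siSF3B1 library lay above every siNT library of the same treatment. The log2 fold change was 0.50 in DMSO cells (SE 0.07, adjusted p = 1.72e-08) and reached 0.91 in 4OHT (SE 0.07, adjusted p = 3.05e-16). The rise was larger in 4OHT by 0.42 on the log2 scale (SE 0.10, adjusted p = 6.05e-04 for the difference itself), and HRAS was the only member for which this difference was called by edgeR, against 37.8% of all tested genes. Without the siRBM39-08 library that stood apart, the difference of MAP2K1 was called too (-0.15, adjusted p = 0.0197). The difference of HRAS depended on the siRNA, at 0.52 with siSF3B1-13 alone (adjusted p = 5.22e-04) and 0.25 with siSF3B1-16 alone (adjusted p = 0.141). ESR1 also rose, by 0.47 in DMSO and 0.79 in 4OHT (log2 fold changes, adjusted p = 1.53e-06 and 3.48e-12), with a difference of 0.32 (SE 0.11, adjusted p = 0.0240).

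MAP2K1 was between 59.0 and 66.7 CPM (median 61.5) in DMSO siSF3B1 libraries and between 134.8 and 144.6 CPM (median 142) in 4OHT siSF3B1 libraries, higher than any siNT library of its treatment. Its log2 fold changes were 0.40 (SE 0.05, adjusted p = 1.29e-09) and 0.25 (SE 0.05, adjusted p = 1.92e-05). ARAF lay at 48.9 to 57.5 CPM in DMSO and 37.9 to 44.5 CPM in 4OHT, below all siNT libraries (log2 fold changes -0.21 and -0.31, adjusted p = 0.0332 and 0.00178). BRAF overlapped its siNT libraries in DMSO (7.74 to 10.6 CPM, log2 fold change -0.27, adjusted p = 0.0222). With siSF3B1-16 alone, neither ARAF nor BRAF passed the test in DMSO (adjusted p = 0.250 and 0.247). The ARAF call in DMSO was also lost without replicate 2 of siNT1, replicate 1 of siNT2 or replicate 2, 3 or 4 of siSF3B1-13 (log2 fold changes -0.20 to -0.19), or with either siNT siRNA alone (-0.22 with each), and the BRAF call without replicate 3 of siNT1 (-0.24). With siNT2 alone BRAF was at -0.15 (adjusted p = 0.336).

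MAPK3 was at 86.8 to 95.8 CPM (median 92.1) in DMSO and 53.2 to 65.9 CPM (median 61.0) in 4OHT upon SF3B1 knockdown. Both groups lay below their siNT libraries, and the fitted change was called in 4OHT (log2 fold change -0.35, SE 0.10, adjusted p = 0.00250) but not in DMSO (-0.19, SE 0.10, adjusted p = 0.0869). Without the siRBM39-08 library that stood apart, the DMSO value was called as well (-0.19, adjusted p = 0.00133), and so was BRAF in 4OHT (-0.20, adjusted p = 0.0356). MAP2K2 ranged from 157 to 170.6 CPM in 4OHT siSF3B1 libraries, below all siNT libraries (log2 fold change -0.28, adjusted p = 0.0407), whereas in DMSO it overlapped (-0.08, adjusted p = 0.562). The 4OHT call of MAP2K2 was lost, at log2 fold changes of -0.29 to -0.26, without any 1 of replicates 1, 2 and 3 of siNT1, 3 and 4 of siNT2, 1, 3 and 4 of siSF3B1-13, or 1, 2 and 4 of siSF3B1-16, and with any single siRNA of either target (-0.32 to -0.29). NRAS overlapped its siNT libraries in both states, with 95% intervals of the log2 fold change from -0.19 to 0.21 in DMSO and from -0.34 to 0.06 in 4OHT.

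RBM39 is an RNA-binding protein related to the U2AF factors, and the comparison of siRBM39 with siNT asked the same question of it. HRAS was higher in both states, at 534 to 695 CPM (median 600.2) in DMSO and 939 to 1588 CPM (median 1059) in 4OHT. Both ranges overlapped siNT, with log2 fold changes of 0.24 (SE 0.07, adjusted p = 0.00423) and 0.33 (SE 0.07, adjusted p = 7.89e-05). HRAS was the 1 member of 7 called in DMSO, where 46.1% of all tested genes were. In 4OHT, 2 of 7 were called, against 56.4%. Without the library that stood apart, HRAS in 4OHT was at 0.24 (adjusted p = 1.91e-04).

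MAP2K2 was the other member called in 4OHT, at 174 to 508 CPM (median 215) with a log2 fold change of 0.30 (SE 0.13, adjusted p = 0.0402). The highest of these values came from the library that stood apart, and without it the change was 0.07 (adjusted p = 0.513). That library also held the highest ARAF (100.1 CPM) and MAPK3 (171.9 CPM) and the lowest MAP2K1 (83.2 CPM) and BRAF (7.10 CPM) of its group. Without it BRAF in 4OHT passed the test (log2 fold change 0.28, adjusted p = 0.00593). The MAP2K2 call was also lost without replicate 1 or 4 of siNT1, replicate 1, 2 or 3 of siNT2 in 4OHT or replicate 4 of siSF3B1-16 in DMSO, with log2 fold changes of 0.28 to 0.30. With siRBM39-06 alone the change of MAP2K2 was 0.14 (adjusted p = 0.101), with siNT1 or siNT2 alone 0.28 and 0.29 (adjusted p = 0.173 with each), and with a replicate block 0.29 (adjusted p = 0.0546). In limma-voom it was 0.22 (adjusted p = 0.108).

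The difference of the siRBM39 effect between treatments was called by edgeR for 0 of 7 members, where 14.1% of all tested genes were called. MAPK3 was the 1 member with an unadjusted p under 0.05 (log2 difference 0.33, adjusted p = 0.133), and limma-voom and DESeq2 also called 0. The library that stood apart held MAPK3 at 171.9 CPM, against a median of 78.8 CPM in siRBM39 cells given 4OHT. With libraries or replicate numbers left out, the MAPK3 difference ranged from 0.10 to 0.43.

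NRAS set the RBM39 siRNAs apart in both treatments. With siRBM39-06 its 4 libraries were at 83.9 to 89.9 CPM in DMSO and 54.2 to 65.2 CPM in 4OHT. With siRBM39-08 they were at 133.5 to 142.8 CPM and 73.3 to 95.1 CPM, so that the siRNAs did not overlap in either treatment. In DMSO, BRAF, MAP2K1 and MAP2K2 did not overlap between these siRNAs either. Their means were 8.94, 50.9 and 221.7 CPM with siRBM39-06 and 12.1, 43.5 and 159.7 CPM with siRBM39-08. In edgeR fits with siRBM39-06 alone, NRAS was lower than siNT by a log2 fold change of -0.52 in DMSO cells (adjusted p = 4.60e-10) and of -0.48 in 4OHT cells (adjusted p = 3.78e-09), whereas siRBM39-08 alone gave 0.14 and 0.05 (adjusted p = 0.0874 and 0.573). Over the 42 comparisons of siRNAs with the same target, 7 genes by 3 targets by 2 treatments, 11 showed no overlap and 0 passed an exact permutation test after adjustment (smallest adjusted p = 0.109). With 4 against 4 libraries the two-sided exact permutation test cannot go below p = 0.0286, which 11 comparisons reached. NRAS also did not overlap between siNT1 and siNT2, with ratios of means of 1.11 in DMSO and 1.08 in 4OHT. The share of all tested genes without such overlap was not computed, so whether 11 of 42 is many cannot be told.

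**Figure D3:**
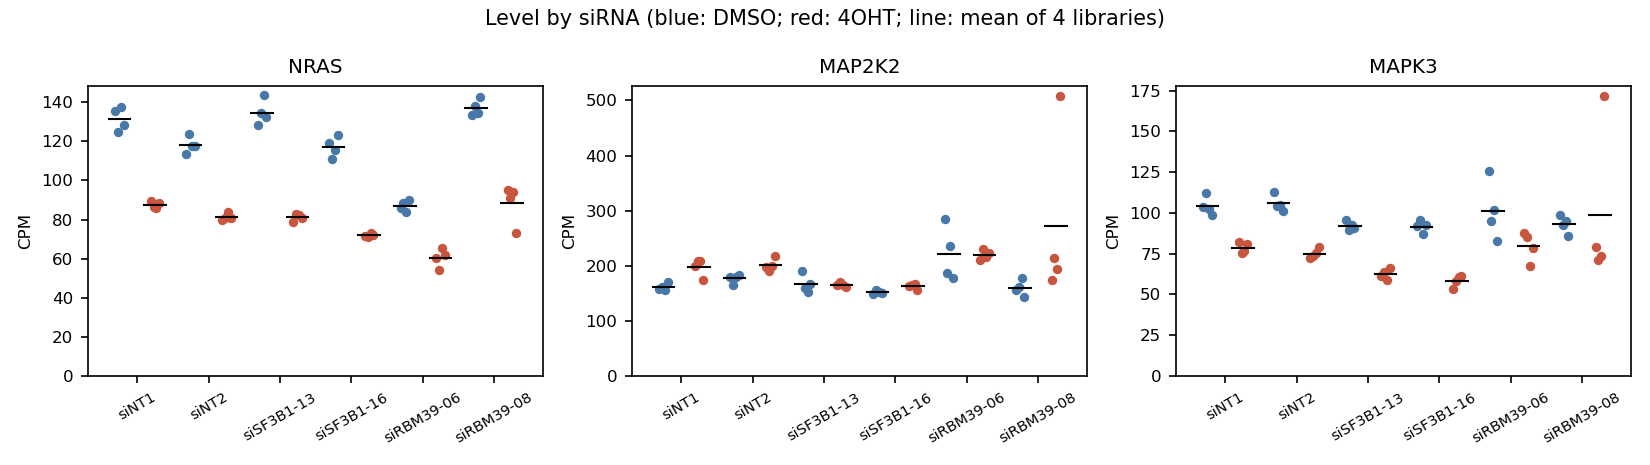
Level of NRAS, MAP2K2 and MAPK3 by siRNA, in CPM (points, libraries; lines, mean of 4; blue, DMSO; red, 4OHT). The siRBM39-06 means of NRAS, 87.0 CPM in DMSO and 60.4 CPM in 4OHT, lie below the siRBM39-08 means of 137.2 and 88.4 CPM.

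The inclusion table gives, for each alternative exon, intron or splice site, the percent spliced in (PSI), the share of transcripts that include the segment. Of the 140 events in the 7 genes (52 exons, 58 introns and 30 splice sites), 27 had no PSI in at least 1 library and 55 had coverage below the lowest class accepted. A further 6 were the first entry of a set of splice sites and 38 ranged over less than 5 points. The other 5 were introns whose reads at their junctions and in their body were unbalanced in at least 1 library. The low-range events were mostly constitutive, as 14 of 17 exons stayed at or above 95 and all 16 introns at or below 5 in every library. The 9 events tested were in ARAF (4), MAPK3 (2), NRAS (2) and HRAS (1). BRAF, MAP2K1 and MAP2K2 had no tested event.

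The calls required an adjusted p under 0.05 in limma and a change of at least 5 points. Of the 9, 1 was called upon SF3B1 knockdown in DMSO and the same event in 4OHT, where 19.8% and 23% of all tested events were called. For 4OHT against DMSO in siNT, limma called 0 of 9, where 0.882% of all tested events were called. For siRBM39 limma called 0 of 9 in each treatment, where 5.66% in DMSO and 6.27% in 4OHT were called. The differences of the knockdown effects between treatments were called by limma for 0 of 9 events, where 0.311% were called for siSF3B1 and 0.00723% for siRBM39. At an unadjusted p under 0.05 in limma there were 3 events for 4OHT, and 2 in DMSO and 4 in 4OHT for siRBM39. For the differences there was 1 for each knockdown. The share of all tested events at that unadjusted threshold is not given here, so these counts have no background.

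The called event was exon 6 of MAPK3, a coding exon of 132 nt, or 44 codons, in the reference transcript. Its sequence and that of a rarely used MAPK3 exon of 51 nt are shown because both lost inclusion upon SF3B1 knockdown. The 51-nt exon is annotated in a transcript marked for nonsense-mediated decay, the pathway that removes mRNAs with early stop codons. In GRCh37, exon 6 lies at chr16:30128475-30128606 and the 51-nt exon at chr16:30126916-30126966. The sequences run 5′ to 3′ on the strand of the gene, with the exon in capitals and 30 intron bases before and 10 after it in lower case. Both exons follow an AG and precede a GT, and 14 and 15 of the 20 bases before the AG are pyrimidines.
MAPK3 exon 6: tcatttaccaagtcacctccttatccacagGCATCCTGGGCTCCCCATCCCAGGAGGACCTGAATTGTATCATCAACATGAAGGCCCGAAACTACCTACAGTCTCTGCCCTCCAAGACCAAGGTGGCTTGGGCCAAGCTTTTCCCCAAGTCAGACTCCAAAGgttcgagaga
MAPK3 51-nt exon: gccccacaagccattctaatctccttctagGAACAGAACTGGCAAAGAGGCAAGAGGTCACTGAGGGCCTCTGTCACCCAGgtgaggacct

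In siNT cells exon 6 was included almost always, with a PSI of 97.1 to 100 (median 98.6) in DMSO and 93.7 to 99.4 (median 95.7) in 4OHT. Upon SF3B1 knockdown it was at 80.9 to 91.3 (median 84.4) in DMSO and 80.3 to 89.1 (median 85.3) in 4OHT. No siSF3B1 library overlapped an siNT library. Mean PSI differed by -13.6 points in DMSO (84.8 against 98.4, adjusted p = 1.14e-13) and by -11.2 points in 4OHT (84.8 against 96.0, adjusted p = 9.12e-09). The depth behind these values was 188 to 519 junction reads per library in the 4 groups. Reads that joined the neighbouring exons and skipped exon 6 numbered 29 of 3532 in DMSO siNT and 264 of 3146 in DMSO siSF3B1, and 56 of 2623 and 169 of 1969 in 4OHT. The event was called in both treatments under all 65 other settings and omissions tried, with differences of -15.5 to -11.6 points in DMSO and -13.1 to -9.34 in 4OHT.

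RBM39 knockdown moved exon 6 the same way but less far. PSI was 91.3 to 96.9 (median 94.5) in DMSO and 89.1 to 93.0 (median 90.7) in 4OHT. The differences were -4.27 points (adjusted p = 1.61e-05) and -5.00 points (adjusted p = 8.33e-04), the latter just short of the 5-point minimum before rounding and called in 13 of the 65 other settings. In siNT cells 4OHT itself changed the PSI of the exon by -2.44 points (adjusted p = 0.0295), also under the minimum.

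The 51-nt exon of MAPK3 was a minor form, at 4.15 to 8.28 PSI (median 6.66) in DMSO siNT and 2.51 to 6.50 (median 4.47) in 4OHT siNT. Upon SF3B1 knockdown it was at 0.68 to 2.48 and 0 to 2.99, with differences of -4.87 points in DMSO (adjusted p = 2.12e-07) and -3.31 points in 4OHT (adjusted p = 2.23e-06). Both differences passed the test but not the minimum. RBM39 knockdown gave -3.01 and -2.24 points (adjusted p = 0.0231 and 0.0136).

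**Figure D4:**
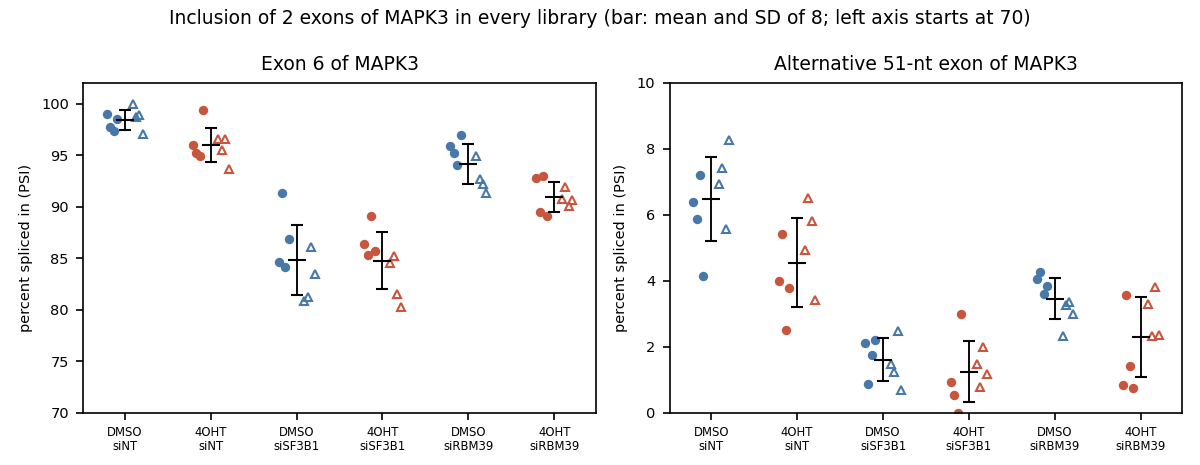
PSI of exon 6 (left, axis from 70) and of the 51-nt exon (right) of MAPK3 in every library (symbols as in the plot of levels; bars, mean and SD of 8). Exon 6 falls from at least 93.7 in siNT to at most 91.3 in siSF3B1 libraries, and the 51-nt exon does not exceed 2.99 in any siSF3B1 library.

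The other tested events passed no 5-point minimum. Retention of ARAF introns of 112 nt and 74 nt was higher in siSF3B1 by 3.43 and 2.03 points in DMSO (adjusted p = 0.0295 and 0.0357) and by 4.27 and 2.38 points in 4OHT (adjusted p = 0.00305 and 0.0120). For a 179-nt exon of NRAS the difference upon SF3B1 knockdown was -3.69 points in DMSO (adjusted p = 0.0199) and -2.19 points in 4OHT (adjusted p = 0.181). An HRAS 3′ splice site that adds 108 nt was used more in 4OHT than in DMSO siNT cells, by 4.80 points (adjusted p = 0.0295), and less upon RBM39 knockdown in 4OHT (-4.53 points, adjusted p = 0.0120).

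Several introns with unbalanced reads at their junctions and in their body changed more, although such reads measure retention less surely. With that filter removed, limma called a 1288-nt intron of ARAF upon SF3B1 knockdown, higher by 13.4 points in DMSO (adjusted p = 5.56e-09) and 24.8 points in 4OHT (adjusted p = 1.15e-10). A 92-nt ARAF intron was higher by 8.78 and 9.34 points, and in 4OHT a 1285-nt ARAF intron by 7.18 and an 889-nt MAP2K2 intron by 5.23 points. ARAF was also lower in level in both of these comparisons, and whether this goes with the introns was not tested.

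HRAS exon 2, which holds the start codon, was examined by its junction reads after the values were seen, because the gene and the transgene share the HRAS row. Exon 1 is untranslated, so a read that joins exon 1 to a later exon reports on a transcript with that leader. Whether the construct carries exon 1 is not given in the sources used here.

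Reads joining exons 2 and 3 numbered 958 to 3771 per library, against 3 to 119 for exons 1 and 2. Scaled to library size, the mean of the exon 2 to 3 junction was 26.5 RPM (reads scaled to the same unit of library size as CPM, SD 1.37) in DMSO siNT and 47.8 (SD 3.09) in 4OHT siNT, and siSF3B1 gave 37.02 (SD 3.17) and 89.6 (SD 9.55), n = 8 each. These 3 contrasts did not overlap, and each gave p = 1.55e-04 in a two-sided exact permutation test, the smallest it can give (adjusted p = 6.48e-04 over 25 tests of HRAS junctions). With siRBM39 the means were 32.7 in DMSO and 61.9 in 4OHT, with overlap (exact permutation test, adjusted p = 0.00111 and 0.00233).

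The exon 3 to 4 junction had fewer reads, with means of 3.43 RPM in DMSO siNT and 5.36 in 4OHT siNT. Its ratio was 1.56 for 4OHT, 1.22 for siSF3B1 in DMSO and 1.75 for siSF3B1 in 4OHT, all with overlap (exact permutation test, adjusted p = 0.00233, 0.00247 and 0.00233). For siRBM39 the ratios were 1.02 in DMSO and 1.07 in 4OHT (adjusted p = 0.744 and 0.720), so a rise like that of the HRAS level was not detected at this junction. The siRBM39-08 library that stood apart was the highest of siRBM39 in 4OHT, at 9.88 RPM against a group median of 5.30.

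Reads that leave exon 1 were few but also higher, with means in RPM of 0.348 for DMSO siNT, 0.567 for 4OHT siNT, 0.643 for DMSO siSF3B1 and 0.817 for 4OHT siSF3B1. All these groups overlapped, and the ratios were 1.63 for 4OHT (exact permutation test, adjusted p = 0.0507), 1.84 for siSF3B1 in DMSO (adjusted p = 0.0398) and 1.44 for siSF3B1 in 4OHT (adjusted p = 0.0363). siRBM39 gave ratios of 2.06 and 2.41 in DMSO and 4OHT (adjusted p = 0.0170 and 0.0363). In DMSO, replicate 1 of siRBM39-06 was the highest of its group, at 1.53 RPM against a group median of 0.580. In 4OHT the siRBM39-08 library that stood apart was the highest of its group, at 3.90 RPM against a group median of 0.831. The ratios were not computed without these libraries.

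Of the reads that leave exon 1, the share joined directly to exon 3 rose upon SF3B1 knockdown. Pooled over 8 libraries, it was 5 of 109 in DMSO siNT (4.59%, exact 95% binomial interval 1.51 to 10.4) and 54 of 193 in DMSO siSF3B1 (27.98%, 21.8 to 34.9). In 4OHT it was 5 of 179 (2.79%, 0.913 to 6.40) and 74 of 237 (31.2%, 25.4 to 37.5). With siRBM39 it was 2 of 249 (0.803%, 0.0974 to 2.87) and 18 of 419 (4.30%, 2.57 to 6.70). Such intervals cover counting error only.

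By library, skipping reads numbered 0 to 2 in each siNT group, 2 to 13 in DMSO siSF3B1 and 4 to 15 in 4OHT siSF3B1. In RPM they did not overlap with siNT in either treatment (exact permutation test, p = 1.55e-04, adjusted p = 6.48e-04 in both). The share did not overlap in 4OHT (adjusted p = 6.48e-04), and in DMSO it overlapped (adjusted p = 0.0126) through 1 siNT2 library with 2 of 5 such reads. Without that library the highest siNT share in DMSO was 9.09%, and the exact permutation test gave p = 3.11e-04. With siRBM39 in 4OHT, skipping was at 0.0583 RPM against 0.0145 in siNT, with overlap (exact permutation test, adjusted p = 0.0421), and the share had an adjusted p of 0.255. The siRBM39-08 library that stood apart was the highest of that group, at 0.127 RPM. With siSF3B1-13 and siSF3B1-16 the pooled share was 30.3% and 24.3% in DMSO and 30.8% and 31.5% in 4OHT. The PSI of exon 2 in the table, which also counts the exon 2 to 3 reads, stayed between 98.2 and 100 in all 48 libraries.

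**Figure D5:**
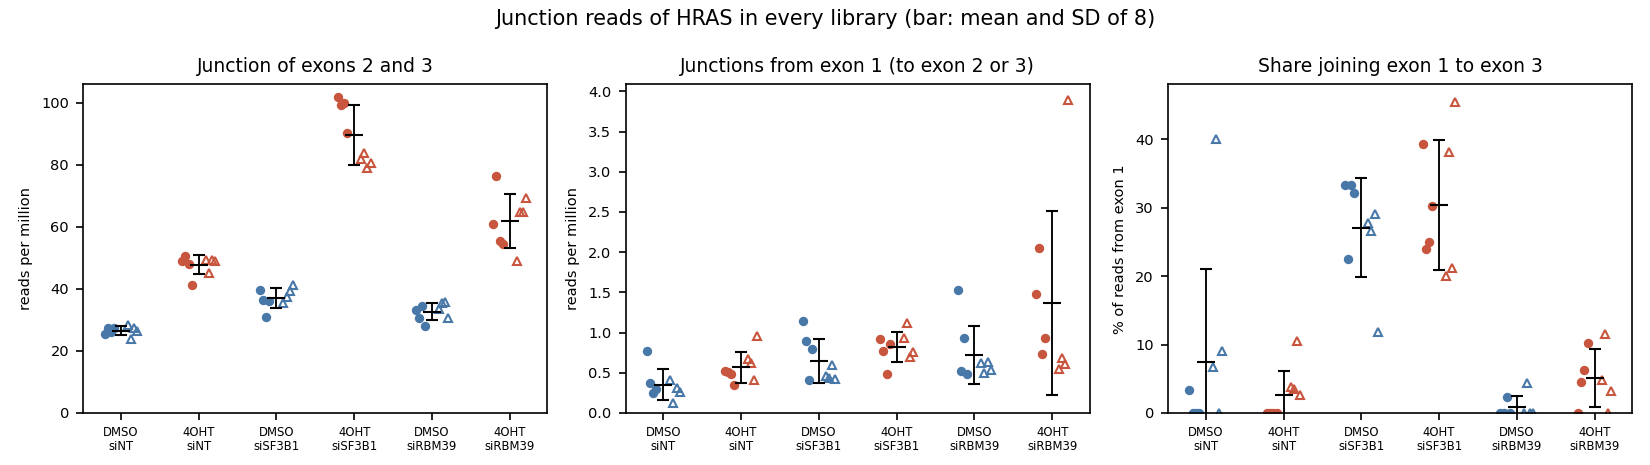
Junction reads of HRAS in every library: exon 2 to 3 and all reads from exon 1, both in RPM, and the share of reads from exon 1 that skip exon 2, in % (symbols as in the plot of levels; bars, mean and SD of 8). The share is at least 20% in each 4OHT siSF3B1 library and at most 10.5% in each 4OHT siNT library, and 1 DMSO siNT library with 5 reads is at 40%.

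Around the 7 genes, 38 of 39 listed pathway genes were tested. With 4OHT in siNT cells 21 rose, 11 fell and 6 did not pass, with a median log2 fold change of 0.20 against -0.0019 for all genes. Over all tested genes 39% rose and 39.1% fell, so the number of pathway genes that passed is near the background of 78.1%. The lipid-processing and trafficking genes, whose products act on RAS at membranes, counted 7 that rose of 8, led by the depalmitoylating enzyme LYPLA1 (log2 fold change 2.15). RPS6KA3, a kinase that ERK phosphorylates, rose by 1.196. The adaptor GAB1 (-1.76) and the RAS-related GTPase RRAS2 (-1.45) fell most.

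Upon SF3B1 knockdown 16 rose and 11 fell in DMSO (median 0.13, all genes 0.02), and 16 rose and 14 fell in 4OHT (median 0.06, all genes 0.03). Over all tested genes 36.5% rose and 36.2% fell in DMSO, and 39.4% and 37.6% in 4OHT. The 3 tested kinases that ERK phosphorylates (RPS6KA1 was listed but below the count filter) fell in both, including RPS6KA3 (-0.70 in DMSO) and MKNK2 (-0.69 in DMSO), while 5 of 6 receptor adaptors rose in each, including CRKL (0.72 in DMSO) and FRS2 (0.79 in 4OHT). Groups this small are described by their counts, and no test set them against other genes. The GTPase-activating protein gene RASAL2 led in DMSO (0.83) and the scaffold LAMTOR3 followed FRS2 in 4OHT (0.78). The lowest in 4OHT were RRAS (-0.99) and RASA1, another GTPase-activating protein (-0.94). Both had lower log2 fold changes in 4OHT than in DMSO (differences -0.55 and -0.74, edgeR adjusted p = 0.00431 and 3.86e-04). In DMSO, RASA1 was not called (-0.19, adjusted p = 0.134). The differences of GAB1 and FNTB, the beta subunit of the farnesyltransferase that lipidates RAS, were positive (0.43 and 0.30, adjusted p = 0.0166 and 0.00626). In all, 4 of 38 differences were called positive and 7 negative, where 17.9% and 19.9% of all tested genes were.

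Upon RBM39 knockdown 5 were called higher and 10 lower in DMSO (median -0.01), where 23.9% and 22.2% of all tested genes were. In 4OHT 6 were higher and 13 lower (median -0.02), where 32.2% and 24.3% of all tested genes were. RCE1, a protease that matures lipidated RAS, was among the highest in both (0.41 and 0.42), with DAB2IP in DMSO (0.27) and GAB1 in 4OHT (0.43). RPS6KA3 (-0.57) and the phosphatase subunit PPP1CB (-0.41) were lowest in DMSO, and PDE6D, which ferries farnesylated proteins (-0.52), and ERBIN (-0.39) in 4OHT. The difference of the siRBM39 effect between treatments was called for 1 of 38 genes, MRAS (-0.19, adjusted p = 0.0310), where 14.1% of all tested genes were called.

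Over the 48 libraries, which share treatments, siRNAs and the library that stood apart, the genes whose log2 CPM was most like each member's are given with Pearson's r as a description. For HRAS they were TMEM66 (0.967) and RAB43 (0.966), and ESR1 was at 0.924, which placed it at rank 118. For NRAS they were PCYOX1 (0.937) and the collagen gene COL1A1 (0.935), for ARAF EIF3G (0.939) and CNPY3 (0.938), and for BRAF STAM2 (0.889) and SYNJ1 (0.885). MAP2K1 had the closest neighbours, TNFRSF10D (0.994) and GPR177 (0.991). MAP2K2 was most like C7orf27 (0.941) and PPP1CA (0.939), and MAPK3 most like RAB34 (0.928) and SNX21 (0.920). After the mean of each of the 12 combinations of treatment and siRNA was removed, r was 0.916 for HRAS with RAB43 and 0.432 with TMEM66. It was -0.60 for NRAS with COL1A1 and -0.55 for HRAS with ESR1. For MAP2K1 it was 0.773 with TNFRSF10D and 0.824 with GPR177. The remaining pairs named were between 0.746 and 0.955. The library that stood apart was included in these values.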

How the data were processed

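RNA-seq of poly-A RNA from 48 libraries was analysed from the deposited tables. The authors aligned reads with vast-tools and the VAST-DB annotation named hg19 and deposited raw counts per gene, cRPKM (RPKM corrected for mappability) and, per event, PSI as a percent with inclusion and exclusion reads and coverage scores. The authors' table of normalised CPM was not used here. Libraries held 31467221 to 52734636 counts.

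Groups followed the sample titles. For 4 siNT2 libraries in 4OHT a characteristic names siNT1, and the methods of the study state another number of replicates than the 4 in the labels.

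Counts were tested in R 4.3.3 with edgeR 4.0.16 (glmQLFit, glmQLFTest, TMM, 6 group means) after a filter that keeps genes whose summed count over the 48 libraries reaches 10000 (9991 of 19847 genes), with Benjamini-Hochberg adjustment at 0.05. The minimum is the one the study states, but the methods of the study give other numbers of genes listed and kept, and the cause was not tested. CPM were computed from the counts with TMM-scaled library sizes. PSI was squeezed by 0.01, taken to the logit and tested with limma 3.58.1 over the 13839 events with PSI and coverage of class VLOW or better in every library, a range of at least 5 points and, for introns, a balance p-value (deposited by the authors) of at least 0.05. The event table's coordinates are those of GRCh38, not of hg19, so exons were located in GRCh37 by the lengths of the exon and both flanking introns in the annotation. Both tests were checked on simulated data. No pair of replicate libraries agreed within sampling noise (72 pairs, lowest chi-square over degrees of freedom 2.00).

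Every member is named. Of the pathway genes, the 2 highest and 2 lowest called genes are named per comparison, and for each member the 2 genes with the highest r. Of the genes listed, 3 were matched by identifier under older symbols. The members, lists and tests were chosen with earlier results of these data known. Alternatives were limma-voom, DESeq2 1.42.0, other size factors and filters, only the groups compared, one group per siRNA, single siRNAs, a replicate block and each library and replicate number left out.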

Additional observations from a re-analysis of the deposited data

Results flagged for a closer look

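Within groups of 8 libraries, 9 of 54 sets of values held a library far from the others by Dixon's test at 95%, where chance gives about 1 in 20. Replicate 4 of siRBM39-08 in 4OHT gave 5 of them, with HRAS at 1588 CPM, ARAF at 100.1 CPM, MAP2K1 at 83.2 CPM, MAP2K2 at 508.1 CPM and MAPK3 at 171.9 CPM. Its SF3B1 level was 224.5 CPM and its VIM level 4809 CPM. Replicate 1 of siRBM39-06 in DMSO gave ARAF at 90.3 CPM and MAPK3 at 125.6 CPM, and its median correlation to its group was 0.969. Replicate 1 of siSF3B1-16 in DMSO was high for BRAF (10.6 CPM) and replicate 1 of siSF3B1-13 in DMSO for MAP2K2 (189.9 CPM). The effect of SF3B1 knockdown on HRAS differed between 4OHT and DMSO by 0.42 on the log2 scale in edgeR's interaction test (SE 0.10, adjusted p = 6.05e-04). The part of RNA quality or other cells in these values was not tested.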

How the results depend on the processing

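Counts of called members that left 1.5 times their value did so as follows. For siSF3B1 in DMSO, 4 genes became 2 with siSF3B1-16 alone, with siNT2 alone or at a minimum of 1 count. For siRBM39 in DMSO, 1 gene became 2 with one group per siRNA and 6 with siRBM39-06 alone. For siRBM39 in 4OHT, 2 genes became 1 with only the groups compared, siNT2 alone, the replicate block or a minimum of 1 count, 4 with one group per siRNA and 5 with siRBM39-08 alone. For the difference of the siSF3B1 effect, 1 gene became 4 with only the groups compared, 3 with one group per siRNA, 0 with siSF3B1-16 alone and 2 at a minimum of 1 count. For that of siRBM39, 0 became 3 with siRBM39-06 alone and 1 with siRBM39-08 alone. With no minimum difference the called events were 2 for 4OHT (from 0), 6 and 4 for siSF3B1 in DMSO and 4OHT (from 1 each) and 2 and 3 for siRBM39 (from 0 each). For siSF3B1, events became 3 with siSF3B1-13 alone, 2 with siSF3B1-16 or siNT2 alone and 3 without the balance filter in DMSO, and 5 without that filter in 4OHT. For siRBM39, 1 event was called with siRBM39-08 alone in either treatment and with siNT1 alone in 4OHT. With siRBM39-06 alone in DMSO, BRAF (-0.22) and MAP2K1 (0.10) changed sign. The shares of all tested genes and events called under other settings, or with libraries left out, are not given here. These counts therefore describe the members only. The causes were not tested.

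With libraries or replicate numbers left out, called genes ranged from 2 to 5 for siSF3B1 in DMSO (2 without replicate 2 or 3), 0 to 3 for siRBM39 in DMSO (0 without replicate 3, 3 without replicate 4), 1 to 5 for siRBM39 in 4OHT and 1 to 2 for the difference of the siSF3B1 effect (2 without replicate 4 of siRBM39-08 in 4OHT). In 4OHT with siRBM39 the count was 1 without replicate 1 or 4 of siNT1 or replicate 1 or 3 of siNT2, 4 without replicate 2 of siRBM39-08 and 5 without replicate 3 of siRBM39-08. Called events ranged from 0 to 1 for 4OHT, 1 to 2 for siSF3B1 in each treatment and 0 to 2 for siRBM39 in 4OHT. Of 752 single values under other settings, 684 kept their direction and side of the threshold.

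Deviations of libraries with the same replicate number from their means correlated at -0.898 to 0.79 (median 0.0123). For different numbers the range was -0.894 to 0.93 (median 0.000126), so no pairing by number was seen. Such correlations cannot show which replicates shared a culture or a day. A replicate block changed only the count for siRBM39 in 4OHT, from 2 to 1, through MAP2K2. Counting depth limited 55 events, and BRAF's events had none tested.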
